A study of Homo sapiens with 6 samples.

Results

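HSPA1A, the gene of the stress-inducible HSP70 chaperone, was read by 2 probes, ILMN_1789074 and ILMN_1660436, of the 48803 on each Illumina human HT-12 BeadChip. The probes were chosen by their identifiers, with their values on these arrays already known. Their levels and differences are therefore given as a description, without a test on either probe. The gene name comes from the annotation used to choose the probes and was not checked against probe sequences, which were not analysed here.

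The 6 arrays measured total RNA of exponentially growing derivatives of H1299, an established human line of non-small cell lung carcinoma that the labels call lung adenocarcinoma. They comprised a line labelled as the control for Lin-28B (1 array), stable Lin-28B clones 1 and 2 (1 array each), a line labelled as the control for Ago2 (1 array) and stable Ago2 clones 1 and 2 (1 array each). Each clone was a separate stable line, and the labels do not say what the controls carried or which promoter drove each transgene. The levels of LIN28B, AGO2 and cell type markers were not analysed here, because the probes other than those of HSPA1A carry no gene names in the material used here.

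HSP70 chaperones bind exposed hydrophobic stretches of unfolded proteins and release them in a cycle driven by ATP, with J-domain proteins and nucleotide exchange factors as partners. HSPA1A is kept low in many resting cells and is switched on by heat shock factor 1, HSF1, when misfolded proteins accumulate, while many tumour lines express it without added stress. LIN28B binds precursors of the let-7 microRNA family and keeps them from being processed. AGO2, an Argonaute protein, holds a mature microRNA and brings it to target transcripts.

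HSPA1A lies on chromosome 6 at 31815543 to 31817942 in GRCh38.p14, on the plus strand. HSPA1B, a neighbouring copy that encodes an almost identical protein, lies 9795 bases farther on, at 31827738 to 31830254. HSPA1L, a relative expressed mainly in testis, occupies 31809619 to 31815283, with 259 bases between its interval and that of HSPA1A. Signal from HSPA1A and HSPA1B transcripts may reach the same probe, so each value below is uncertain as to which of these copies it came from. The RefSeq sequence of the 250 bases before each start (GRCh38.p14, plus strand) is shown to let the regulatory sequence of both copies be compared. Capitals mark a match to GAANNTTC, a pair of inverted units of the kind that, in longer arrays, make up the heat shock elements bound by HSF1.
HSPA1A, chr6:31815293-31815542: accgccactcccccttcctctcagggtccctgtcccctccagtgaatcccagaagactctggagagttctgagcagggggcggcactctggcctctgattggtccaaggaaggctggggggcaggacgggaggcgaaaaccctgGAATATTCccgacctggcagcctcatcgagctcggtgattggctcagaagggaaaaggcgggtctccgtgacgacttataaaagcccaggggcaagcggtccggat
HSPA1B, chr6:31827488-31827737: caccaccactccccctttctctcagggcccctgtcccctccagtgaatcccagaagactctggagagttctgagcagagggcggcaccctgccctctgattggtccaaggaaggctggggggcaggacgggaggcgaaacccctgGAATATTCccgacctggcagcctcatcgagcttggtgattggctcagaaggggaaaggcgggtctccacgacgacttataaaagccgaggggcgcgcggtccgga

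The upstream sequences of HSPA1A and HSPA1B were identical at 235 of 251 aligned positions (93.6%). Each held 1 match to GAANNTTC, read on both strands, which lay 106 to 99 bases before the start of HSPA1A and 105 to 98 bases before that of HSPA1B. The same letters occurred in 5.78% of 35116 RefSeq promoters over the same window. Neither sequence held the inverted pair TTCNNGAA, which 6.62% of promoters held and which can share letters with GAANNTTC. Neither held an extended form with a further unit after either pair, which 0.441% of promoters held for each form. A missing match says only that these letters are not in the window. Both sequences also held TATAAA, present in 10.7% of promoters, ending 25 bases before the start in HSPA1A and 24 in HSPA1B. The box CCAAT or its reverse complement occurred at 2 places in each, against 32% of promoters with at least 1.

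The Ago2 control array stood apart for HSPA1A by both probes. ILMN_1789074 had an intensity of 196 on the Ago2 control, 2081 on Ago2 clone 1 and 3518 on Ago2 clone 2. On the Lin-28B arrays it read 1943 in the control, 2307 in clone 1 and 1223 in clone 2. The Ago2 control was thus the lowest of the 6 arrays, and the other 5 spanned a range of intensities from 1223 to 3518.

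ILMN_1660436 had an intensity of 321 on the Ago2 control, 3235 on Ago2 clone 1 and 5237 on Ago2 clone 2. On the Lin-28B arrays it read 1913 in the control, 2647 in clone 1 and 2132 in clone 2. The Ago2 control was again the lowest and Ago2 clone 2 the highest. Each array measured the pooled RNA of a line, so less transcript per cell and fewer cells with the transcript cannot be told apart. Both probes read the same labelled RNA of each array and are repeat readings, not replicates.

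**Figure D1:**
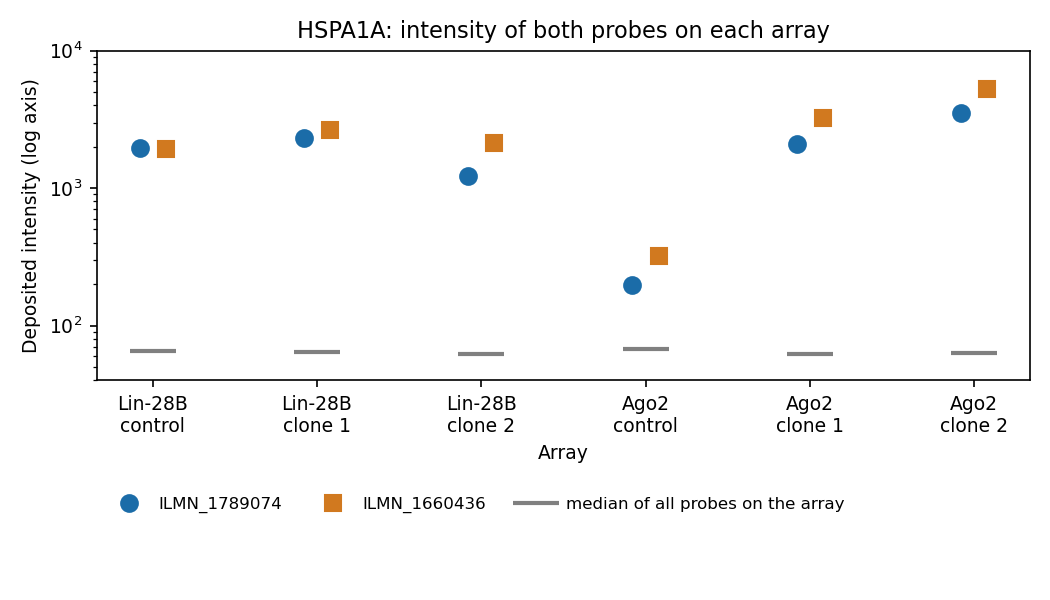
Deposited intensity of ILMN_1789074 (circles) and ILMN_1660436 (squares) on each of the 6 arrays, on a log axis, with the median of all probes of the array as a grey bar. Both probes read lowest on the Ago2 control, at 196 and 321, and highest on Ago2 clone 2, at 3518 and 5237.

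HSPA1A was well above the bulk of the probes even where it was lowest. On the Ago2 control ILMN_1789074 measured 2.93 times the array's median intensity and stood at percentile 82.0 of all probes. ILMN_1660436 measured 4.80 times the median there and stood at percentile 86.2. On the other 5 arrays the percentiles ran from 94.7 to 98.1 for ILMN_1789074 and from 96.8 to 98.8 for ILMN_1660436. Median intensities of whole arrays lay between 61.7 and 67.04, the highest being that of the Ago2 control. The lowest value of each array lay between 26.1 and 43.4, so the median is near the dim end. Whether brighter probes read low on the Ago2 control array cannot be told from these medians. Both HSPA1A probes passed the filter on dim probes, which kept 28035 probes that exceeded their array's median on at least 2 arrays.

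The first comparison asked how HSPA1A differed between the Ago2 clones and the Ago2 control. The mean intensity of ILMN_1789074 was 2799 ± 1016 (SD, n = 2) in the clones against 196 in the control, a ratio of 14.3. For ILMN_1660436 it was 4236 ± 1416 (SD, n = 2) against 321, a ratio of 13.2. After quantile normalization of log2(intensity + 32), which understates changes of dim probes, the differences were 3.50 ± 0.45 (SE) and 3.52 ± 0.31 (SE) on the log2 scale. Both probes gave nearly the same size of difference, and it was of one direction in both clones.

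Taken separately, Ago2 clone 1 exceeded the control by 3.15 by ILMN_1789074 and by 3.17 by ILMN_1660436 on the normalized log2 scale. Ago2 clone 2 exceeded it by 3.85 and 3.86. The clones themselves differed by 0.70 and 0.68, clone 2 being higher, and 3.60% and 3.87% of kept probes had Ago2 clones at least that far apart. The gap between control and clones was therefore several times the distance between the clones, but the control rests on 1 array whose own spread was not measured.

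Ranked by the mean increase over the Ago2 control, ILMN_1660436 held place 1 and ILMN_1789074 place 2 of the 28035 kept probes. This placing belongs to the values by which the probes became of interest and is given as a description. Both probes were at least 2-fold higher in both clones, as were 0.638% of kept probes (179). In either direction 347 kept probes were at least 2-fold apart from the control in both clones, a number that was 713 without Ago2 clone 1 and 918 without Ago2 clone 2, as a single pair then decides. Over the array as a whole, limma with Benjamini-Hochberg adjustment over all kept probes called 0 probes at an adjusted p of 0.05 (0%), with 4239 at an unadjusted p under 0.05. It called 64 without Ago2 clone 2, 0 without Ago2 clone 1, 161 with an intensity trend in the moderation and 0 with robust moderation.

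**Figure D2:**
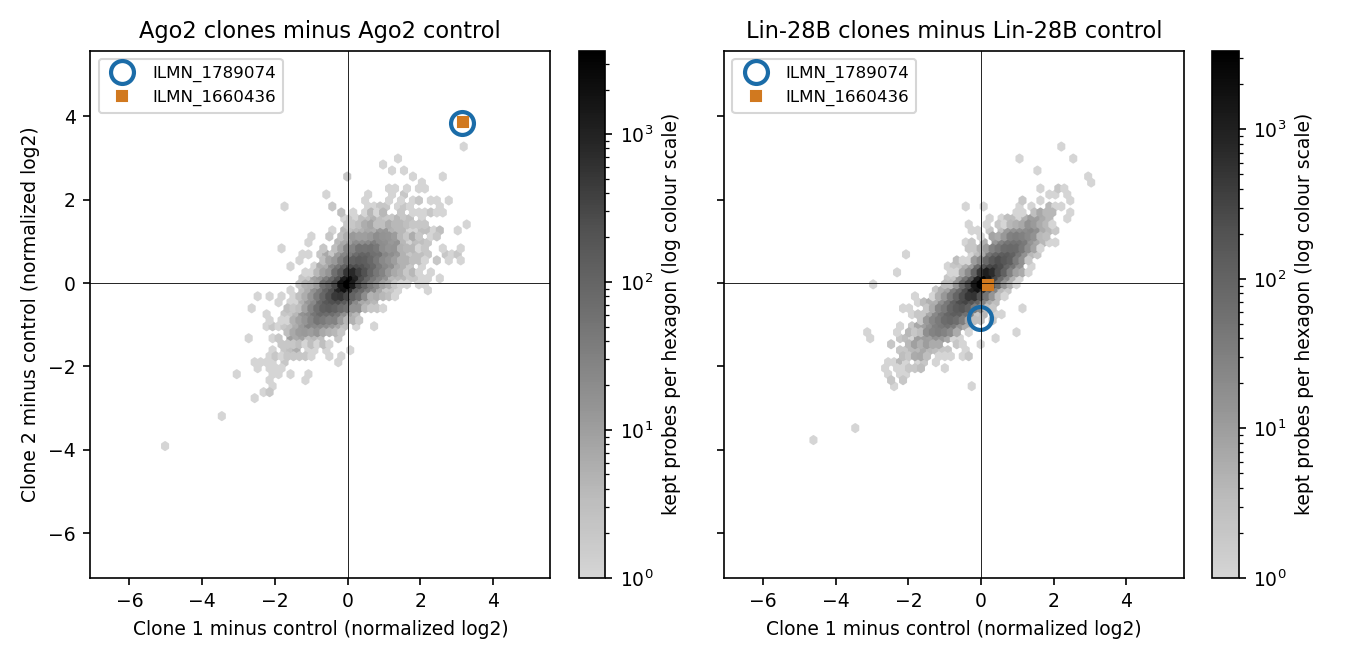
Difference of clone 2 from its control against that of clone 1, in normalized log2 units, for all 28035 kept probes (hexagons shaded by number of probes on a log colour scale), with Ago2 on the left and Lin-28B on the right. The HSPA1A probes, an open circle and a filled square, coincide at the upper right for Ago2, at 3.15 and 3.85 and at 3.17 and 3.86, and lie near the bulk for Lin-28B.

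The second comparison concerned the Lin-28B clones and their control, in which HSPA1A differed little and the probes gave different signs. ILMN_1789074 had a mean intensity of 1765 ± 767 (SD, n = 2) in the clones against 1943 in the control. Its normalized log2 difference was -0.43 ± 0.45 (SE). ILMN_1660436 had a mean intensity of 2389 ± 364 (SD, n = 2) against 1913, with a normalized log2 difference of 0.079 ± 0.311 (SE). Neither difference exceeded its standard error, and the control lay inside the range of the clones in normalized log2 values for ILMN_1660436 and just above it for ILMN_1789074. By deposited intensity the control lay inside the clones' range for ILMN_1789074 and below both clones for ILMN_1660436, so these positions depend on the scaling.

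Against the Lin-28B control, the probes disagreed more in Lin-28B clone 2 than in clone 1, by 0.80 and 0.22. Against the Ago2 arrays they disagreed by 0.14 to 0.16 for clone 2 and by 0.41 to 0.44 for clone 1. For the Lin-28B control they disagreed with the Ago2 arrays by 0.64 to 0.66. Where the disagreement appeared thus depended on the array taken as reference. Lin-28B clone 2 lay 0.85 below the Lin-28B control by ILMN_1789074 and 0.045 below it by ILMN_1660436 on the normalized log2 scale. Lin-28B clone 1 lay 0.020 below the control by the first probe and 0.20 above it by the second. The direction for ILMN_1660436 in clone 2 depended on the scaling: its deposited intensity was 1.11 times that of the control, yet its normalized value was lower. Between the Lin-28B clones the probes differed by 0.83 and 0.25, clone 1 being higher. Only 0.503% of kept probes had Lin-28B clones as far apart as ILMN_1789074 did, against 17.9% for ILMN_1660436. Neither HSPA1A probe was at least 2-fold changed in one direction in both clones, as 2.55% of kept probes were. The 716 probes behind that share became 1296 without Lin-28B clone 2, since a single pair then decides.

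The third comparison set the control lines against each other, with 1 array each and no replicate check of their own. ILMN_1789074 had an intensity of 1943 in the Lin-28B control and 196 in the Ago2 control, a ratio of 9.91 and a normalized log2 difference of 3.25 ± 0.52 (SE). ILMN_1660436 read 1913 and 321, a ratio of 5.95 and a normalized log2 difference of 2.61 ± 0.36 (SE). Here the probes shared the direction and differed in size by 0.64 on the log2 scale. Neither control was repeated, so the SE borrows its spread from the clones. As in the other comparisons, limma moderated that spread toward the spread of all kept probes. The clones' own pooled SD was 0.54 by ILMN_1789074 and 0.36 by ILMN_1660436, and an SE from it alone would be larger. Both probes were at least 2-fold higher in the Lin-28B control, as were 4.51% of kept probes.

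The fourth comparison set the clones of both transfections directly against each other, without a control. The normalized log2 difference of the Lin-28B clones from the Ago2 clones was -0.69 ± 0.37 (SE) by ILMN_1789074 and -0.83 ± 0.25 (SE) by ILMN_1660436. By ILMN_1660436 both Lin-28B clones lay below both Ago2 clones, by 0.36 to 1.30. By ILMN_1789074 the groups overlapped, because Lin-28B clone 1 stood 0.077 above Ago2 clone 1 while the other 3 pairs went the opposite way, the farthest by 1.45. The direction of the mean was thus shared, and the separation of the groups was not. Neither probe was 2-fold apart in every pair of arrays, as 7 kept probes (0.025%) were. That number of probes rose to 37 without Lin-28B clone 1, 34 without Lin-28B clone 2, 98 without Ago2 clone 1 and 73 without Ago2 clone 2, as fewer pairs then had to be 2-fold apart.

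The difference between both effects, each against its own control, came to -3.93 by ILMN_1789074 and -3.44 by ILMN_1660436 on the normalized log2 scale. It is the sum of 2 parts. The clones contributed -0.69 and -0.83, and the gap between the controls contributed the rest, 3.25 and 2.61 with the sign turned. Most of the contrast between the transfections in HSPA1A was therefore a difference between the 2 control arrays.

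The Ago2 control was also set against the next lowest of all the other arrays, not only against its own clones. On the normalized log2 scale it lay 2.40 below the next lowest array by ILMN_1789074 and 2.56 below it by ILMN_1660436, Lin-28B clone 2 being that array by both probes. Among the kept probes these gaps held place 2 and place 1 in size. These places reuse the values by which the probes became of interest and are given as a description. The Ago2 control was the lowest array for 21.0% of kept probes, and it was so by at least 2-fold for 61 (0.218%). Whether the low reading belongs to the control line, to its culture at harvest or to the array was not tested, since the line had 1 array.

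Measured against the Lin-28B control instead of their own, the Ago2 clones differed by 0.25 by ILMN_1789074 and by 0.91 by ILMN_1660436. The Lin-28B clones measured against the Ago2 control differed by 2.81 and 2.69. With both controls pooled, the differences of the Ago2 clones were 1.88 and 2.21, and those of the Lin-28B clones 1.19 and 1.38. The size of the HSPA1A difference in a clone thus moved most with the control it was compared with.

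**Figure D3:**
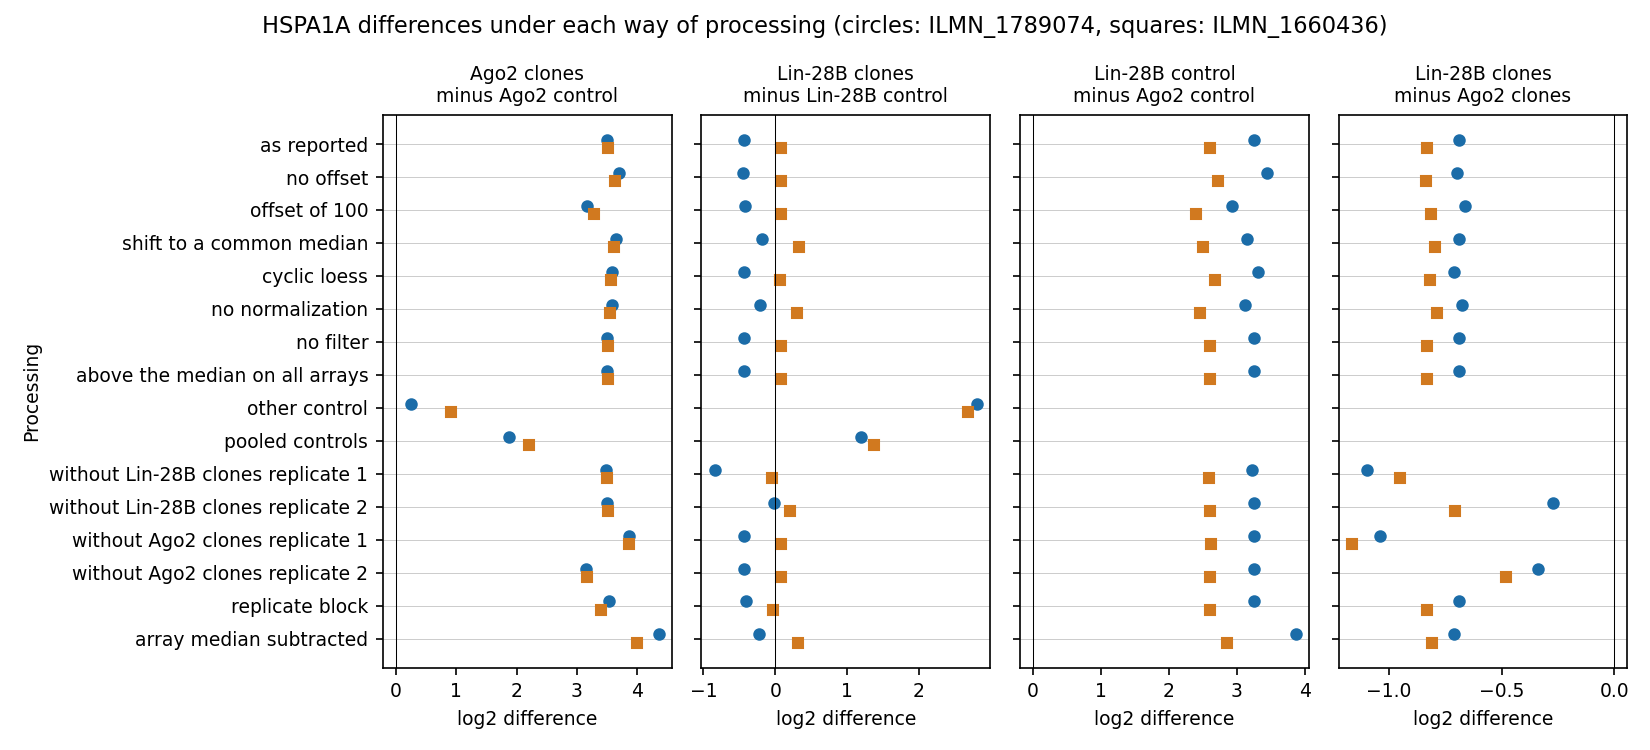
Log2 difference of HSPA1A in the 4 comparisons (panels, each with its own horizontal scale) under each way of processing (rows), with circles for ILMN_1789074 and squares for ILMN_1660436. For the Ago2 clones the differences ran from 3.15 to 4.36 wherever their own control was kept and were 0.25 and 0.91 against the other control.

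Whether the 2 probes agreed depended on the arrays compared. Over the 15 pairs of arrays, they gave the same direction in 13 by deposited intensity and in 12 by normalized value. All 5 pairs that include the Ago2 control went the same way, with normalized differences that disagreed between the probes by 0.0075 to 0.64. Among the 10 pairs without it, 8 went the same way by intensity and 7 by normalized value. In those pairs the differences reached at most 1.45 by ILMN_1789074 and 1.30 by ILMN_1660436, and the probes disagreed by 0.018 to 0.80. The disagreement between probes was therefore of the size of many of the differences themselves once the Ago2 control was left out. Its size followed other arrays than the Ago2 control. Among the Ago2 arrays and Lin-28B clone 2 the probes disagreed by 0.0075 to 0.16. Pairs of these arrays with the Lin-28B control disagreed by 0.64 to 0.80, and with Lin-28B clone 1 by 0.41 to 0.58. Each pair of opposite direction by normalized value held the Lin-28B control or Lin-28B clone 1.

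The order of the arrays shows where the probes part. By normalized value, ILMN_1789074 ran from low to high in the order Ago2 control, Lin-28B clone 2, Ago2 clone 1, Lin-28B clone 1, Lin-28B control and Ago2 clone 2. For ILMN_1660436 the order was Ago2 control, Lin-28B clone 2, Lin-28B control, Lin-28B clone 1, Ago2 clone 1 and Ago2 clone 2. Both orders hold the same arrays at the low and high ends and Lin-28B clone 1 in the same place, while Ago2 clone 1 and the Lin-28B control exchange places around it. Those 3 neighbours spanned 11.04 to 11.14 in log2 units by ILMN_1789074, less than the 0.70 between Ago2 clones, and cannot be ordered by it. By ILMN_1660436 the same 3 arrays spanned 11.11 to 11.67, also less than the 0.68 between Ago2 clones.

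**Figure D4:**
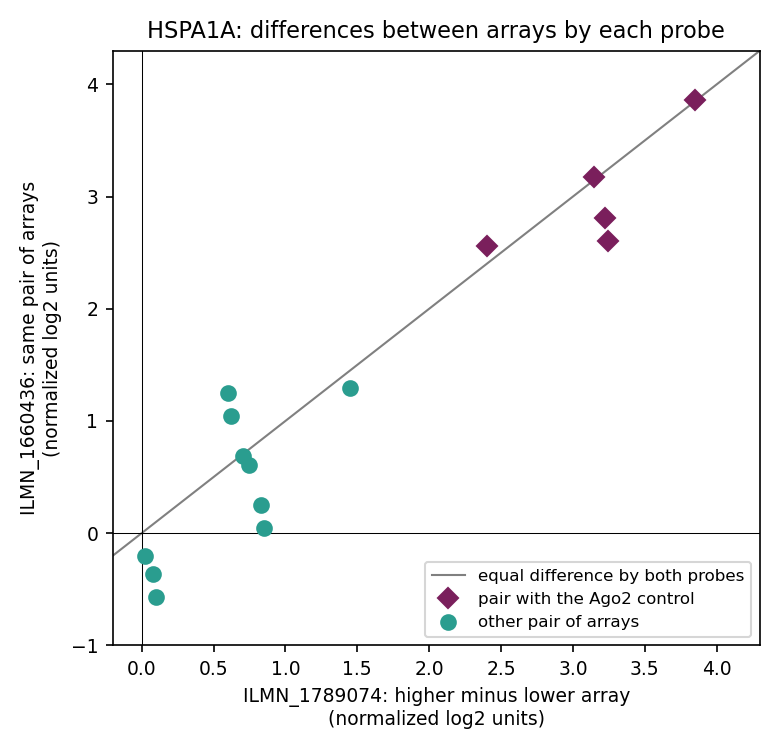
Difference between arrays by ILMN_1660436 against the same difference by ILMN_1789074 for all 15 pairs, in normalized log2 units, each pair turned so that the horizontal value is positive, with the line of equal difference. The 5 pairs with the Ago2 control (diamonds) lie at the upper right, and 3 of the other 10 pairs (circles) fall below 0 on the vertical axis.

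Across the 6 arrays the normalized values of both probes had a Pearson coefficient of 0.974 and a Spearman coefficient of 0.77, given as a description because the Ago2 control lies far from the other arrays. Without the Ago2 control and Lin-28B clone 2, the 2 arrays farthest from the median of ILMN_1789074, the Pearson coefficient over the remaining 4 was 0.84. Ranked by Pearson coefficient with ILMN_1789074, ILMN_1660436 held place 24 among the other 28034 kept probes. In the reverse ranking ILMN_1789074 held place 27. A further 152 kept probes (0.542%) had a coefficient of at least 0.9 with both HSPA1A probes. All these coefficients share the 6 arrays, 1 of which stands apart, and no gene is named from them.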

How the data were processed

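Probe intensities on a linear scale were deposited by the authors as 1 table of 48803 probes on 6 arrays. Per the labels' protocols, RNA was extracted with Trizol and labelled as biotinylated cRNA (Ambion MessageAmp). How the scanner values were background-corrected or normalized is not given in the sources used here. Groups and clone numbers came from the sample titles.

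After a floor of 1 and an added offset of 32, log2 values were quantile normalized. A probe was kept if it exceeded the median of the array on 2 or more arrays (28035, 57.4%). One 4-group model over all 6 arrays was fitted in limma 3.58.1 (R 4.3.3), with 2 residual degrees of freedom from the clone pairs and Benjamini-Hochberg adjustment over kept probes. Controls with 1 array were assumed to vary like the clones. The number of arrays limits the precision, and no label tells of separate cultures or hybridizations. The p-values and SEs rest on the spread between the unpaired clones of each transfection, with 1 array each. This spread was moderated by limma toward that of all kept probes, with 2.54 prior degrees of freedom. Differences between lines and technical differences cannot be told apart in the spread between clones. Promoters were searched with Python 3.11.15 and aligned with biopython 1.88.

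The probes, lists and comparisons were chosen with earlier results of these data known. By the rule for named genes, both HSPA1A probes are given in full and no other gene is named without symbols. The lists of chaperones, heat shock factors, HSF1-inducible genes, ER stress genes, chromosome 6 neighbours, transfected genes and cell type markers were therefore not analysed here. Alternatives covered offset, normalization, filter, control, replicates, block and moderation.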

Additional observations from a re-analysis of the deposited data

How the results depend on the processing

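The Ago2 difference kept its direction under all 15 alternatives for both probes. With its own control it ran over 13 alternatives from 3.15 to 4.36 for ILMN_1789074 and from 3.17 to 3.99 for ILMN_1660436. Against the other control it was 0.25 and 0.91, and with pooled controls 1.88 and 2.21. Subtracting the array median as a background level, an alternative chosen after seeing the data, gave 4.36 for the Ago2 difference of ILMN_1789074 and 3.86 for its difference between the controls. The Lin-28B difference of ILMN_1660436 was 0.33 with arrays shifted to a common median, 0.31 without normalization and 0.32 with the median subtracted. Against the other control the Lin-28B differences were 2.81 for ILMN_1789074 and 2.69 for ILMN_1660436, and with pooled controls 1.19 and 1.38, so that the first probe changed sign. The difference between the probes (ILMN_1660436 minus ILMN_1789074) in the Ago2 comparison was 0.016 as reported. It was -0.053 with no offset, 0.12 with an offset of 100, -0.033 with a median shift or no normalization, -0.027 with cyclic loess, 0.66 against the other control, 0.34 with pooled controls and -0.36 with the median subtracted. Leaving out 1 clone at a time moved it between -0.0017 and 0.019. That difference was -0.13 for the Lin-28B clones against the other control and -1.003 between the controls with the median subtracted. For the direct comparison of the clones it ran from -0.44 without Lin-28B clone 2 to 0.14 when 1 clone at a time was left out, against -0.14 as reported. The cause of these shifts was not tested.

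Clone numbers name separate lines, and same-numbered clones did not deviate together (r = -0.204 across kept probes). With the clone number as a replicate block, the Ago2 differences were 3.53 and 3.41, their difference between probes -0.12, and the Lin-28B differences -0.40 and -0.029. The block left the array-wide limma count for Ago2 at 0, and over all alternatives it ranged from 0 to 161. Counts at least 2-fold changed either way ranged from 6 to 918 for Ago2 (347 as reported), 6 to 1296 for Lin-28B (716), 1613 to 2930 for the controls (2303) and 4 to 98 for the direct comparison (7). The highest Ago2, Lin-28B and direct counts each came from leaving out 1 clone. The planned calls for heat shock genes were not run without probe names.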
